A study of Mus musculus with 24 samples.

Results

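Proliferating neural stem and progenitor cells (NSPCs) that lack both functional copies of *Kat6a* were set against proliferating NSPCs that carry both, and the change is described here across all protein-coding genes. By the genotype and population labels, 4 libraries were homozygous null (*Kat6a-/-*) and 4 were wild type (*Kat6a+/+*), which makes 8 of the 24 libraries of the series. The cells came from mouse dorsal telencephalon at mid-gestation (E12.5), were cultured in medium with FGF2 and EGF, in which neurospheres float, were frozen at passage 3 or 4, and were plated for 3 days before RNA was taken. The genotypes did not grow alike in this medium, since many *Kat6a-/-* cells stuck to the plastic and *Kat6a+/+* cells floated, so that genotype and mode of growth cannot be told apart. Heterozygous (*Kat6a+/-*) proliferating libraries, also 4, entered the same statistical fit, and libraries of differentiating cells, kept for 3 days in serum on a coated surface, are used only where the 2 conditions are compared. The null allele carries a constitutive deletion of some of the exons with a premature stop in the catalytic domain, and the cells had gone through several passages, so that an effect in the embryo and an effect of growth in culture cannot be told apart.

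KAT6A is a histone acetyltransferase that works in a complex with BRPF scaffold proteins, ING5 and MEAF6. It places acetyl groups on the tail of histone H3, a mark found at active promoters and enhancers. Telencephalic stem cells in culture resemble radial glia, which line the ventricle of the developing cortex, divide, give rise to neurons first and later turn to making glia. The genes that mark these stages (intermediate filaments, adhesion molecules, transporters and growth factor receptors) are therefore a natural readout when a chromatin enzyme is removed from such cells.

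Library totals were 7854556 to 40838203 counts in *Kat6a+/+* and 7826660 to 9775640 counts in *Kat6a-/-*, and *Kat6a+/+* replicate 1 was the deepest. Y-linked genes summed to between 202.9 and 224.7 CPM in 3 of 4 *Kat6a+/+* libraries (replicates 2, 3 and 4) and in 1 of 4 *Kat6a-/-* libraries (replicate 3). They summed to at most 0.102 CPM in the other 4, so that sex and genotype were partly confounded. A fit with this level as a covariate called 2757 genes, and it is given beside a result where it ended a call or moved a count by more than 1.5 times. The *Kat6a+/+* libraries came from litters 4113, 4346, 4633 and 4746 and the *Kat6a-/-* libraries from litters 4633, 4633, 4746 and 5063, in the order of the replicate numbers. *Kat6a* itself was at 398.9, 391.7, 404.8 and 377.7 CPM (counts normalised to library size) in *Kat6a+/+* and at 396.5, 361.9, 345.1 and 343.9 CPM in *Kat6a-/-*, a log2 fold-change of −0.13 that was not called (limma FDR 0.1). The counts cover the whole gene, whereas only some exons are deleted, and they do not check the labels.

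The loss of *Kat6a* was accompanied by many changes of small size. Of 12276 genes tested with limma-voom, 3686 (30%) passed a Benjamini-Hochberg false discovery rate (FDR) of 0.05, of which 1993 (16.2% of the tested genes) were higher and 1693 (13.8%) lower in *Kat6a-/-* NSPCs. The median log2 fold-change was 0.575 among the higher and −0.429 among the lower genes, and the median of all tested genes was −0.005. A change of more than 1 on the log2 scale was found for 515 higher and 260 lower genes, and a change of more than 2 for 124 higher and 52 lower genes. All 4 *Kat6a-/-* libraries lay outside the range of the 4 *Kat6a+/+* libraries for 3778 genes (30.8%), among them 3057 of the called genes. Just inside the threshold lay *Shisa5* (log2 fold-change 0.32, limma FDR 0.05) and just outside it *Kcnj2* (−0.70, limma FDR 0.0502).

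Among the called genes, large rises sat at low expression and many small falls at high expression. When the tested genes were ordered by mean log2 CPM and divided into 4 equal groups of 3069, the lowest held 583 higher and 294 lower genes and the highest 441 higher and 579 lower genes. The median size of a called change went from 1.153 on the log2 scale in the lowest to 0.349 in the highest of these groups. A gene with few counts passes the threshold only with a larger change, so that this trend in size is partly built in. The filter on low counts also keeps genes that reach it in a single genotype, which adds large changes at low expression. In a principal component analysis of log2 CPM of the 8 libraries, the first component held 61.6% of the variance and separated the genotypes, with *Kat6a+/+* between −34.7 and −18.1 and *Kat6a-/-* between 16.7 and 48.2. The second held 16%, and *Kat6a-/-* replicate 4, the one library of this comparison from litter 5063, stood at 30.2 on it with the other 3 *Kat6a-/-* libraries between −15.6 and −11.4. The number of called genes fell to 2317 without *Kat6a+/+* replicate 1 and to 1936 with litter as a fixed term. It fell to 1039 when only the 7 libraries of litters 4633 and 4746, the 2 litters that hold both genotypes, were fitted with litter as a fixed term, and 1015 of these 1039 were also called above. Those 7 were *Kat6a+/+* replicates 3 and 4, *Kat6a-/-* replicates 1, 2 and 3 and *Kat6a+/-* replicates 2 and 3. Among them Y-linked genes summed to 202.9 and 205.4 CPM in *Kat6a+/+* and to 0, 0 and 224.7 CPM in *Kat6a-/-*. Sex and genotype therefore stayed partly confounded in this fit. Leaving out *Kat6a+/+* replicate 1 likewise removed the only *Kat6a+/+* library low in Y-linked counts. With so few libraries, a call lost in the 2 litters does not show that the effect is absent.

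**Figure D1:**
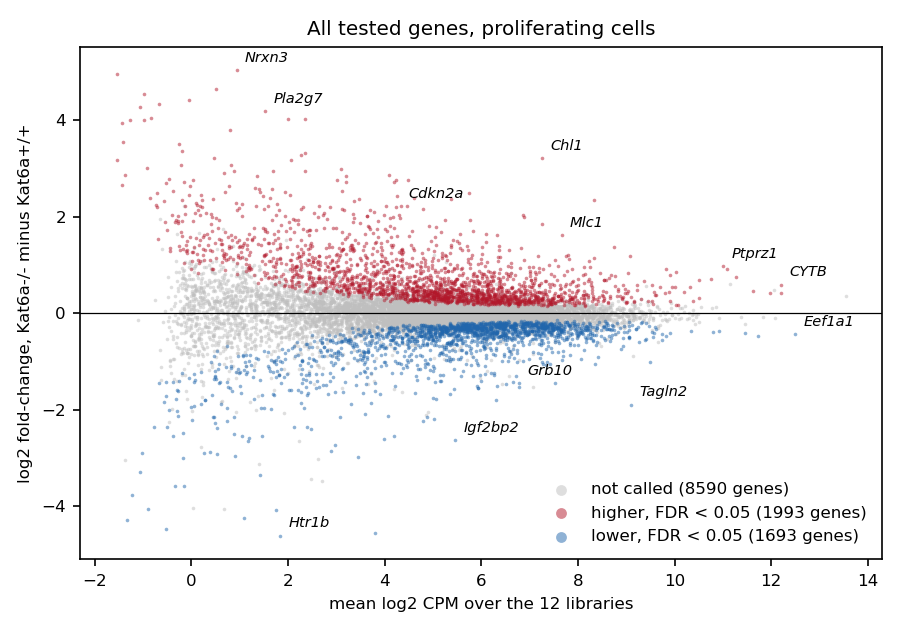
Log2 fold-change in Kat6a-/- relative to Kat6a+/+ proliferating NSPCs (vertical axis) against mean log2 CPM over the 12 proliferating libraries (horizontal axis) for each of 12276 tested genes, with 1993 genes called higher in red and 1693 called lower in blue. The largest changes, such as Nrxn3 and Htr1b, lie at low expression, while Chl1, Igf2bp2 and Tagln2 combine a large change with a high level.

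The largest rises with an average log2 CPM above 1 included genes of the cell surface, the matrix and lipid or oxidant handling. *Chl1*, a cell adhesion molecule of the L1 family that lies on mm39 chromosome 6 from 103487353 to 103727508, was the most abundant of them. It measured 42.5, 23.2, 90.4 and 65.9 CPM in the *Kat6a+/+* and 475.6, 453.3, 532.9 and 485.2 CPM in the *Kat6a-/-* libraries. The *Kat6a-/-* libraries were alike and all far above the *Kat6a+/+* range, and the log2 fold-change was 3.22 (SE 0.28, limma FDR 2.85e-05).

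*Frem1*, which encodes an extracellular matrix protein of basement membranes, went from 1.01, 0.842, 1.70 and 2.31 CPM to 30.8, 15.5, 16.7 and 32.7 CPM (log2 fold-change 4.03, SE 0.48, limma FDR 0.000131). *Thy1*, a surface glycoprotein anchored by a lipid tail, was at 0.782 to 1.199 CPM in *Kat6a+/+* and at 7.34 to 55.3 CPM in *Kat6a-/-* (log2 fold-change 4.02, limma FDR 0.00499). Its level differed more between *Kat6a-/-* libraries than between *Kat6a+/+* libraries, and replicate 4 held the highest value. *Pla2g7*, a secreted phospholipase that degrades platelet-activating factor, was at 0.481 to 2.70 CPM in *Kat6a+/+* and 7.996 to 32.3 CPM in *Kat6a-/-* (log2 fold-change 4.19, limma FDR 0.00229). *Sod3*, the extracellular superoxide dismutase, rose by 3.28 and *Scrg1*, a small secreted protein found in brain, by 2.94 on the log2 scale. Groups that do not overlap were a condition by which these genes were chosen. *Pla2g7*, *Thy1*, *Sod3* and *Scrg1* were not called in the 7 libraries of the 2 litters (limma FDR 0.259, 0.0977, 0.058 and 0.23), where their estimates were 3.19, 3.53, 2.61 and 2.61.

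Rises of similar size were found for *Dlgap1*, a scaffold protein of the postsynaptic density (log2 fold-change 3.33, limma FDR 0.000233), for *Ldb2*, an adaptor of LIM-domain transcription factors (3.00, limma FDR 0.000114), and for *Dsc2*, a cadherin of desmosomes (2.94, limma FDR 0.00158). *Nr2f2* (COUP-TFII), a nuclear receptor, was at 1.70, 2.05, 1.30 and 3.98 CPM in *Kat6a+/+* and at 21.3, 20.5, 18.9 and 12.02 CPM in *Kat6a-/-* (log2 fold-change 3.18, limma FDR 0.000367). These 4 rises were called in the 2 litters alone as well, with estimates of 2.52, 2.40, 2.17 and 3.05.

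Among the falls, *Igf2bp2*, an RNA-binding protein of fetal tissues on mm39 chromosome 16 from 21877759 to 21982499, was the most abundant. It went from 104.5, 110.3, 85.1 and 97.1 CPM to 7.73, 14.2, 16.5 and 23.4 CPM (log2 fold-change −2.64, SE 0.25, limma FDR 2.85e-05). The lowest *Kat6a+/+* library was more than 3 times the highest *Kat6a-/-* library. *Trim71* (also known as Lin41), an RNA-binding ubiquitin ligase of early progenitors, went from 9.60, 10.4, 27.0 and 24.9 CPM to 2.54, 2.49, 4.32 and 1.64 CPM (log2 fold-change −2.86, limma FDR 0.015), a call that was lost without *Kat6a-/-* replicate 4 (−2.48).

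*Htr1b*, a serotonin receptor, fell from 9.90, 11.9, 15.3 and 13.0 CPM to 0.923, 0.918, 0.554 and 0.103 CPM (log2 fold-change −4.61, SE 0.47, limma FDR 3.41e-05). *Nrn1* (neuritin), a small neurite-promoting protein, had 31.8 to 69.8 CPM in *Kat6a+/+* and 1.15 to 2.49 CPM in *Kat6a-/-* (log2 fold-change −4.55, SE 1.01, limma FDR 0.00662). With the groups this far apart it was not called in the 2 litters alone, where the estimate was −4.74 (limma FDR 0.193). *Cadps* and *Sv2c*, both proteins of secretory vesicles, fell by 4.25 and 2.73, and *Elfn2*, a synaptic leucine-rich repeat protein, fell by 2.99 on the log2 scale. *Slc38a4*, an amino acid transporter, was at 7.58 to 13.7 CPM in *Kat6a+/+* and at 0.231 to 1.33 CPM in *Kat6a-/-* (log2 fold-change −4.07, limma FDR 0.00367). *Sfrp1*, a secreted inhibitor of Wnt ligands, fell by 3.36 and *Lef1*, a DNA-binding partner of beta-catenin, by 2.64 on the log2 scale (limma FDR 0.000289 and 0.00351).

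**Figure D2:**
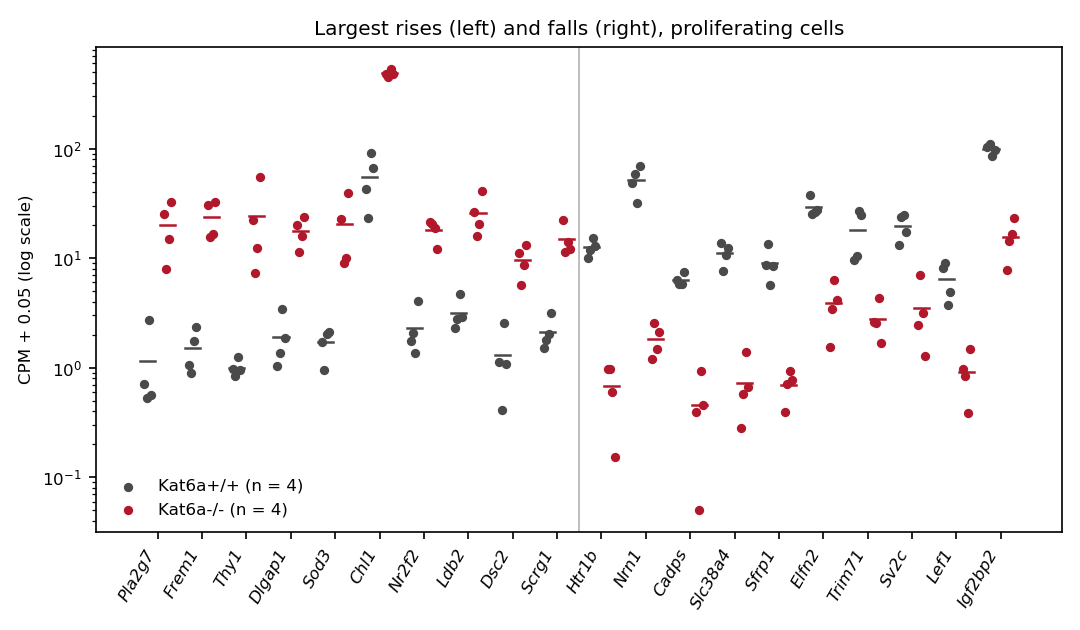
CPM plus 0.05 on a log scale (vertical axis) in each of the 4 Kat6a+/+ (grey) and 4 Kat6a-/- (red) proliferating libraries for the 10 largest rises and the 10 largest falls, where points are libraries and short lines are group means. For all 20 genes the 2 groups do not overlap, which was one of the conditions by which they were chosen, and Chl1 and Igf2bp2 stand out by their level.

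The smallest p-values were not in the largest changes but in genes with little spread. *Ablim1*, an actin-binding LIM protein, was at 7.45, 10.8, 12.2 and 11.1 CPM in *Kat6a+/+* and at 46.1, 40.2, 42.0 and 45.6 CPM in *Kat6a-/-* (log2 fold-change 2.20, SE 0.14, limma FDR 1.93e-06). *St8sia4*, an enzyme that adds polysialic acid to adhesion molecules, went from 9.03 ± 0.817 to 29.97 ± 4.02 CPM (SD, n = 4; log2 fold-change 1.74, limma FDR 1.93e-06). *Opcml*, a GPI-anchored adhesion molecule of the IgLON family, rose by 1.94, *Mlc1*, a membrane protein of astrocyte endfeet, by 1.62, and *Inpp4b*, a lipid phosphatase, by 1.42 on the log2 scale, each with a limma FDR of 3.23e-06. Each of the 5 kept its direction and its call in every fit that left out 1 library and in the 2 litters alone.

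Among called genes whose groups did not overlap, the largest gains in mean CPM were in 4 transcripts of the mitochondrial genome and in *Ptprz1* and *Serpine2*. *CYTB*, a subunit of respiratory complex III encoded in the mitochondrion, went from 4006 ± 787 to 6310 ± 705 CPM (SD, n = 4; log2 fold-change 0.59, limma FDR 0.0247). Of the 13 protein-coding mitochondrial genes, all tested, 10 were called higher and 0 lower, with estimates from 0.36 to 0.84 and a median of 0.59. They took 2.98% to 4.26% of all counts in *Kat6a+/+* libraries and 4.54% to 6.20% in *Kat6a-/-* libraries. *CYTB* was no longer called without *Kat6a+/+* replicate 1, 2 or 4 or without *Kat6a-/-* replicate 1, 3 or 4, with estimates from 0.51 to 0.59, *ATP6* (log2 fold-change 0.41, limma FDR 0.0438) was no longer called in 9 of 12 fits with 1 library left out, those without *Kat6a+/+* replicate 3 and without *Kat6a+/-* replicate 3 or 4 being the exceptions, and *ND4* (0.75, limma FDR 0.0172) without *Kat6a+/+* replicate 4 or *Kat6a-/-* replicate 4. *COX2* (0.42, limma FDR 0.0132) was called in all fits that left out 1 library, but none of the 4 was called in the 2 litters alone.

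*Ptprz1*, a receptor phosphatase of radial glia and astrocytes, rose from 1544 ± 274 to 3211 ± 422 CPM (SD, n = 4), a log2 fold-change of 0.98 with an SE of 0.15 (limma FDR 0.000531). *Serpine2*, a secreted protease inhibitor of glia, went from 1655, 1633, 1586 and 1779 CPM up to 3304, 3155, 2770 and 3377 CPM (log2 fold-change 0.91, SE 0.08, limma FDR 1.01e-05). Under the same condition, the largest losses were in the translation elongation factors *Eef1a1* and *Eef2*, in the intermediate filaments *Vim* and *Nes*, in the actin-binding protein *Tagln2* and in lactate dehydrogenase *Ldha*. *Eef1a1* went from 6708 ± 365 to 4838 ± 678 CPM (log2 fold-change −0.43, limma FDR 0.00862) and *Eef2* fell by 0.42 on the log2 scale. *Tagln2* went from 1022, 882.9, 907.5 and 1047 CPM down to 213.5, 352.5, 405.0 and 108.3 CPM (log2 fold-change −1.90, SE 0.31, limma FDR 0.00134). *Ldha* fell by 1.02 on the log2 scale (limma FDR 0.0318) and was not called in 7 of the 8 fits that left out 1 *Kat6a+/+* or *Kat6a-/-* library, the exception being the one without *Kat6a+/+* replicate 3.

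Markers of the labelled cell type were present and moved in both directions. The counts of list members here and below stand beside 16.2% higher and 13.8% lower (30% called) over all 12276 tested genes. Of 12 genes of neural stem cells and radial glia, all tested, 3 were higher, 4 lower and 5 not called, and the summed level was 8240 to 8930 CPM in *Kat6a+/+* and 7690 to 8870 CPM in *Kat6a-/-*. *Slc1a3*, the glutamate transporter GLAST of radial glia, rose from 649 ± 82.3 to 1347 ± 352 CPM (SD, n = 4; log2 fold-change 0.91, limma FDR 0.00511), *Msi1*, an RNA-binding protein of stem cells, rose by 0.43 and *Fabp7*, a lipid carrier, by 0.44 on the log2 scale. *Vim* fell by 0.47 (limma FDR 0.00108), *Nes* by 0.36 (limma FDR 0.0322) and *Prom1* by 1.08 (limma FDR 0.014). *Sox2* (−0.26, limma FDR 0.0686), *Hes1* (−0.27), *Hes5* (−0.80), *Pax6* (0.08) and *Notch1* (0.07) were not called. *Fabp7* lost its call without *Kat6a+/+* replicate 1, 2 or 4 or *Kat6a-/-* replicate 1, 2 or 3, and *Nes* without *Kat6a+/+* replicate 1, 2 or 3 or *Kat6a-/-* replicate 1 or 4. *Nes* was also not called with the Y-linked covariate (−0.23, limma FDR 0.173) or in the 2 litters alone (−0.24, limma FDR 0.465).

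Astrocyte genes were more often higher than lower. Of 16 tested, 10 were called higher and 1 lower, with 13 estimates above 0. The median log2 fold-change was 1.04 against −0.005 over all genes, and the summed level of the list was 1920 to 2300 CPM in *Kat6a+/+* and 3250 to 4240 CPM in *Kat6a-/-*. *Gfap*, the astrocyte intermediate filament, had the largest estimate (3.51, limma FDR 0.00379) at a low level, 0 to 0.543 CPM in *Kat6a+/+* and 1.88 to 6.69 CPM in *Kat6a-/-*. *Mlc1* went from 127 ± 17.7 to 389 ± 46.2 CPM (SD, n = 4) and *Aldoc*, the aldolase of astrocytes, rose by 1.19 on the log2 scale (limma FDR 0.00108). The one fall was in *Fgfr3*, a growth factor receptor of glial progenitors (−1.38, limma FDR 0.00833). The fits that left out 1 library called 10 or 11 of them higher and that of the 2 litters alone 4, where *Gfap* had an estimate of 4.38 and was not called.

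Markers of other cells moved in both directions, and many were too low to be tested. Of 10 tested neuronal genes, 1 was higher (*Map2*, 0.25, limma FDR 0.0374) and 3 lower, of which *Rbfox3*, a splicing factor of mature neurons, fell most (−1.78, limma FDR 0.0156), with summed levels of 1500 to 1650 CPM in *Kat6a+/+* and 1620 to 1780 CPM in *Kat6a-/-*. Of 11 tested genes of the oligodendrocyte lineage, 2 were higher and 2 lower, and without *Kat6a-/-* replicate 1 none was higher and with the Y-linked covariate 1. The whole list summed to 2500 to 2980 CPM in *Kat6a+/+* and to 2820 to 3290 CPM in *Kat6a-/-*. Its largest called fall was in *Gpr17* (−3.28, limma FDR 0.0182), at 0 to 0.443 CPM in *Kat6a-/-*. The *Gpr17* call was lost without *Kat6a+/+* replicate 3 or *Kat6a-/-* replicate 1 or 4. Of 3 tested endothelial genes, *Emcn* fell (−2.28, limma FDR 0.0256), and its call was lost without *Kat6a+/+* replicate 1 or *Kat6a-/-* replicate 1, 3 or 4. The 11 fibroblast and meningeal genes summed to 20.7 to 28.4 CPM in *Kat6a+/+* and to 20.4 to 29.4 CPM in *Kat6a-/-*, and 8 of them stayed below 1 CPM in all 8 libraries. *Map2* lost its call without *Kat6a+/+* replicate 1, 2 or 4 or *Kat6a-/-* replicate 1, 2 or 3.

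Among 10 microglial markers, *P2ry12*, a purinergic receptor, was the only one tested, and it rose from 1.18, 1.32, 1.40 and 1.29 CPM to 8.19, 8.39, 6.20 and 6.58 CPM (log2 fold-change 2.51, SE 0.24, limma FDR 1.9e-05). The other 9 stayed below 1 CPM in all 8 libraries and 6 of the 10 had no count in any of them, the microglial genes *Cx3cr1*, *Tyrobp*, *C1qa*, *C1qb*, *C1qc* and *Trem2*. Whether fewer or more cells of a type or a different RNA content per cell lay behind any of these values cannot be told apart in bulk RNA.

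Adhesion molecules of neural cells rose more often than they fell. Of 43 tested clustered protocadherins, which give neurons and glia their surface identity, 24 were higher and 0 lower, with a median log2 fold-change of 0.62. *Pcdhb9* changed most (2.19, SE 0.27, limma FDR 0.000134), from 1.95, 2.89, 3.00 and 2.70 CPM to 14.2, 8.91, 9.63 and 16.6 CPM. Of 9 non-clustered protocadherins, 6 were higher and 0 lower. The count of 24 fell to 15 without *Kat6a+/+* replicate 1 and to 5 in the 2 litters alone, and reads of near-identical protocadherins may have been split between copies.

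Of 32 tested synaptic and IgLON adhesion genes, 14 were higher and 3 lower. *Nrxn3*, a presynaptic neurexin, had the largest estimate of all named genes: it went from 0.321, 0.241, 0.400 and 0.385 CPM up to 21.1, 10.8, 15.4 and 6.68 CPM (log2 fold-change 5.04, SE 0.65, limma FDR 0.000185). *Opcml* went from 21.6 ± 3.54 to 86.3 ± 10.8 CPM (SD, n = 4), and *Lrrtm4*, a postsynaptic organiser, fell by 1.19 (limma FDR 0.017), with a call that was lost without *Kat6a-/-* replicate 3. Of 10 cadherins, 3 were higher and 0 lower, with *Cdh10* at 1.11 (limma FDR 0.000751). The fits that left out 1 library called 13 to 15 of the 32 synaptic and IgLON members higher, and that of the 2 litters alone 10.

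Genes of the matrix and of its turnover changed in both directions. Of the laminins and netrins 36.4% were called, against 30% of all tested genes (16.2% higher and 13.8% lower). Of 25 tested collagens, 10 were higher and 2 lower. *Col9a1* had the largest rise (1.88, limma FDR 0.0213) at 0.411 to 2.23 CPM in *Kat6a-/-*, where the groups overlapped, and *Col2a1* the largest fall (−2.35, limma FDR 0.0142). Among 28 matrix proteases and inhibitors, 9 were higher and 8 lower. *Mmp16*, a membrane-bound metalloproteinase, rose from 3.95, 3.31, 7.59 and 3.98 CPM to 16.96, 20.7, 22.8 and 22.2 CPM (log2 fold-change 2.17, SE 0.27, limma FDR 0.000159). *Adamts19*, a secreted metalloproteinase, went the other way, from 1.93 to 3.90 CPM down to 0 to 0.115 CPM (log2 fold-change −4.48, limma FDR 6.28e-05). Of 18 integrins, 4 were higher and 4 lower, and of 11 laminins and netrins 2 were higher and 2 lower, with the laminin chain *Lamb1* up by 0.58 (limma FDR 0.000521) and *Ntng1* down by 1.62 (limma FDR 0.00272). *Col9a1* lost its call without *Kat6a+/+* replicate 1 or *Kat6a-/-* replicate 3, *Col2a1* without *Kat6a-/-* replicate 3 or 4, and the collagen count fell to 6 without *Kat6a+/+* replicate 1.

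Ligands and receptors of axon guidance changed in both directions. Of the semaphorins and plexins 38.5% were called, against 30% of all tested genes (16.2% higher and 13.8% lower). Of 17 ephrins and Eph receptors, 5 were higher and 3 lower, of 26 semaphorins and plexins 7 were higher and 3 lower with a median of 0.006 and 13 estimates above 0, and of 11 genes of the SLIT, ROBO and netrin receptor list 3 were higher and 2 lower. *Plxnc1*, a semaphorin receptor, was at 23.3, 22.8, 21.2 and 21.7 CPM in *Kat6a+/+* and at 75.7, 50.9, 54.9 and 60.6 CPM in *Kat6a-/-* (log2 fold-change 1.41, SE 0.12, limma FDR 1.01e-05). The *Kat6a+/+* values lay within a narrow range. *Slit2*, a repulsive ligand, went from 2.50 to 3.85 CPM in *Kat6a+/+* to 0.411 to 0.664 CPM in *Kat6a-/-* (log2 fold-change −2.38, limma FDR 0.000367). The ephrin count fell to 3 without *Kat6a+/+* replicate 1 or *Kat6a-/-* replicate 4 and to 2 in the 2 litters alone, where that of semaphorins and plexins was 4.

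Receptors for glutamate, the main excitatory transmitter, rose more often than they fell. Of 18 tested, 11 were higher and 1 lower, with a median log2 fold-change of 0.75, and their summed level went from 714 to 932 CPM in *Kat6a+/+* to 1370 to 1900 CPM in *Kat6a-/-*. *Gria1*, an AMPA receptor subunit, had the largest rise (4.01, SE 0.63, limma FDR 0.000634), at 0 to 0.200 CPM in *Kat6a+/+* and 1.33 to 3.35 CPM in *Kat6a-/-*. *Grin2a*, an NMDA receptor subunit, had the one fall (−4.05, SE 1.36, limma FDR 0.0416), with overlapping groups and a call that was lost in 10 of the 12 fits that left out 1 library, those without *Kat6a+/+* replicate 3 and without *Kat6a+/-* replicate 4 being the exceptions. Between 9 and 12 members were called higher when 1 library was left out, and 8 in the 2 litters alone.

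Channels and transporters followed with less of an imbalance. Of 21 sodium and calcium channel genes, 8 were higher and 4 lower, and of 40 potassium channel genes 9 were higher and 6 lower. That is 37.5% of the potassium channel genes called, against 30% of all tested genes (16.2% higher and 13.8% lower). *Kcnc4*, a fast potassium channel, rose by 2.04 (limma FDR 0.000213), and *Cacna1c*, a pore-forming calcium channel subunit, fell by 0.91 on the log2 scale (limma FDR 0.00128). Of 215 solute carriers, 56 (26.0%) were higher and 22 (10.2%) lower. *Slc39a12*, a zinc transporter, had the largest rise among them (3.17, limma FDR 0.00511) at 1.22 to 3.19 CPM in *Kat6a-/-*. Of 13 adhesion G protein-coupled receptors 4 were higher, led by *Adgra1* (1.68, limma FDR 0.000234), and 3 lower, led by *Adgre5* (−1.50, limma FDR 0.00059), and of 7 GABA and glycine receptor genes 2 were higher and 0 lower. The sodium and calcium channel count fell to 5 without *Kat6a+/+* replicate 1.

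Signalling pathways showed few members moving together. Over all tested genes 16.2% were higher and 13.8% lower. Of 32 Wnt genes, 5 were higher and 10 lower, with the inhibitor *Dkk3* up by 2.22 (limma FDR 0.000756) and *Sfrp1*, another inhibitor, down by 3.36. Of 19 Notch genes, 4 were higher and 4 lower, with the divergent ligand *Dll3* up by 1.03 (limma FDR 0.00133) and the target *Hey1* down by 0.55 (limma FDR 0.0386). Of 17 genes of BMP signalling and its ID targets, 5 were higher and 1 lower, and *Id1*, which blocks basic helix-loop-helix factors, rose from 9.80, 8.66, 9.59 and 9.38 CPM to 31.0, 20.7, 19.4 and 53.2 CPM (log2 fold-change 1.50, limma FDR 0.00286). Of 10 hedgehog genes, *Hhip*, which binds and removes the ligand, fell by 1.36 (limma FDR 0.0024). *Hey1* lost its call without *Kat6a+/+* replicate 1, 2 or 4, *Kat6a-/-* replicate 1 or 4, or *Kat6a+/-* replicate 1, and with the Y-linked covariate (limma FDR 0.116).

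In the FGF, EGF and ERK list, 6 of 22 genes were higher and 4 lower, and 2 were higher without *Kat6a-/-* replicate 4, with the Y-linked covariate or in the 2 litters alone and 3 without *Kat6a+/+* replicate 2 or 3 or *Kat6a-/-* replicate 1. *Fgfr2* rose by 0.86 (limma FDR 0.0273) and *Fgfr3* fell by 1.38, and *Fgfr2* lost its call without *Kat6a+/+* replicate 2, 3 or 4 or *Kat6a-/-* replicate 1 or 4 and with the Y-linked covariate (limma FDR 0.0559). Immediate early genes, which growth factors and stress switch on within minutes, had a median of −0.43. Of 22 tested, 0 were higher and 6 lower, and *Atf3* fell most, from 4.49, 6.08, 1.80 and 3.73 CPM to 0.461, 0.787, 0.443 and 1.44 CPM (log2 fold-change −2.16, limma FDR 0.00566).

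Chromatin regulators changed little in size. Of the Polycomb genes 33.3% were called and of the MLL and menin genes 33.3%, near the 30% of all tested genes. Of 7 genes of the KAT6A complex and its paralog, *Kat6b* was higher (0.22, limma FDR 0.0186) and 2 were lower, with *Brpf1*, the scaffold, at −0.26 (limma FDR 0.0222). Without *Kat6a+/+* replicate 1 or *Kat6a-/-* replicate 4 none of these 3 was called, and none of the 7 was lower with the Y-linked covariate or in the 2 litters alone. Of 30 Polycomb genes, 2 were higher and 8 lower (5 without *Kat6a+/+* replicate 1, 2 or 4 or *Kat6a-/-* replicate 4 or with the Y-linked covariate, and 2 in the 2 litters alone), and of 15 genes of the MLL and menin complexes 0 were higher and 5 lower (1 in the 2 litters alone). *Men1*, which encodes menin, was at 130.1, 127.8, 124.2 and 123.8 CPM in *Kat6a+/+* and at 99.9, 92.6, 98.6 and 87.2 CPM in *Kat6a-/-* (log2 fold-change −0.40, SE 0.06, limma FDR 0.000578). Of 360 zinc finger genes with ZFP symbols, 37 (10.3%) were higher and 29 lower, a smaller share than that of all tested genes, and 18 were higher without *Kat6a+/+* replicate 1 and 2 in the 2 litters alone. Among transcription factor families, SOX genes had 1 higher and 5 lower of 12, with *Sox1*, a factor of neural progenitors, down by 2.60 (limma FDR 3.91e-05), the DLX, EMX, OTX, LHX and PAX genes 1 higher and 2 lower of 5, with *Otx1*, a forebrain patterning factor, down by 1.50 (limma FDR 0.00017), FOX genes 3 higher and 4 lower of 18, and NFI genes 1 higher (*Nfix*, 0.95, limma FDR 0.00059) and 1 lower (*Nfia*, −0.35, limma FDR 0.0138) of 4. None of 39 HOX and 15 TBX genes was high enough to be tested. The FOX count of 4 fell to 1 without *Kat6a+/+* replicate 1, *Kat6a+/+* replicate 2 or *Kat6a-/-* replicate 2, and to 2 with the Y-linked covariate.

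Many genes of the cytosolic ribosome fell by small amounts. Of 81 cytosolic ribosomal protein genes, 0 were higher and 38 (46.9%) lower, with a median log2 fold-change of −0.40, 43 not called and 2 of the 81 estimates above 0. *Rpl35* had the largest fall, from 19.8, 24, 20.2 and 25.2 CPM to 15.5, 12.9, 14.6 and 10.1 CPM (log2 fold-change −0.72, SE 0.14, limma FDR 0.00238). Of 78 mitochondrial ribosomal proteins, 2 were higher, 6 lower and 70 not called, and 3 were lower without *Kat6a+/+* replicate 1 or 4 and 0 in the 2 litters alone. The count of 38 fell to 24 without *Kat6a+/+* replicate 4, to 22 without *Kat6a-/-* replicate 4, to 25 with the Y-linked covariate and to 13 in the 2 litters alone, and copies of these genes elsewhere in the genome make single estimates uncertain.

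Of 19 genes for amino acid supply, which ATF4 controls, 8 were lower and 1 higher. The count of 8 was 5 with the Y-linked covariate and 3 in the 2 litters alone. *Asns*, asparagine synthetase, was at 101.3, 120.2, 74.5 and 94.0 CPM in *Kat6a+/+* and at 34.8, 45.0, 53.9 and 37.9 CPM in *Kat6a-/-* (log2 fold-change −1.09, limma FDR 0.00241). The groups did not overlap, but *Asns* was not called in the 2 litters alone (−0.87, limma FDR 0.101). Of 20 glycolysis genes, 3 were higher and 4 lower, with a median of −0.49 and 3 estimates above 0. The count of 4 was 2 without *Kat6a+/+* replicate 4 or *Kat6a-/-* replicate 3 or 4, 0 in the 2 litters alone, 8 with edgeR and with DESeq2, and 9 in a fit of the 8 libraries without *Kat6a+/-*. *Hk2*, a hexokinase, fell by 1.80 (limma FDR 0.0216), while the brain aldolase *Aldoc* rose by 1.19 on the log2 scale. Of 22 cholesterol synthesis genes, 1 was higher and 6 lower, so that 31.8% were called, near the 30% of all tested genes. Nuclear genes of oxidative phosphorylation had small rises, 21 of 83 being higher and 1 lower, with a median of 0.18 and 78 estimates above 0. That count of 21 fell to 7 without *Kat6a+/+* replicate 1, to between 8 and 12 without *Kat6a+/+* replicate 2 or *Kat6a-/-* replicate 1, 3 or 4, to 10 with the Y-linked covariate, to 13 with edgeR and to 0 in the 2 litters alone. *Hk2* lost its call without *Kat6a+/+* replicate 4 or *Kat6a-/-* replicate 3 or 4, and the cholesterol count fell to 2 without *Kat6a-/-* replicate 4 to 3 without *Kat6a+/+* replicate 2 or 4 or *Kat6a-/-* replicate 1, to 2 with the Y-linked covariate and to 1 in the 2 litters alone.

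Cell cycle genes were lower in small steps. Of 44 S phase genes, 0 were higher and 22 (50%) lower, with a median of −0.32, and of 43 genes of G2 and mitosis 1 was higher and 16 lower, with a median of −0.27. *Pold1*, the catalytic subunit of DNA polymerase delta, went from 185.8, 163.6, 170.7 and 193.6 CPM to 146.7, 130.0, 131.8 and 78.7 CPM (log2 fold-change −0.56, limma FDR 0.00827). *Aurkb*, a mitotic kinase, fell by 0.48 (limma FDR 0.031), and its call was lost without *Kat6a+/+* replicate 1, 2 or 4 or *Kat6a-/-* replicate 4, with the Y-linked covariate (limma FDR 0.0627) and in the 2 litters alone (limma FDR 0.173). *Kat6a-/-* replicate 4 had the lowest level of both genes. The S phase count was 9 without *Kat6a+/+* replicate 1 and 12 without *Kat6a+/+* replicate 3 or *Kat6a-/-* replicate 4, and it was 6 with the Y-linked covariate and 5 in the 2 litters alone. The mitotic count was 4 without *Kat6a+/+* replicate 1, 6 without *Kat6a-/-* replicate 4, between 8 and 10 without *Kat6a+/+* replicate 2, 3 or 4, 2 with the Y-linked covariate, 6 with edgeR and 1 in the 2 litters alone.

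Inhibitors of cyclin-dependent kinases changed in both directions. *Cdkn2a*, the locus of p16INK4A and p19ARF on mm39 chromosome 4 from 89192708 to 89212890, went from 13.6, 12.2, 8.29 and 13.9 CPM up to 46.3, 58.2, 55.1 and 51.5 CPM (log2 fold-change 2.23, SE 0.19, limma FDR 1.3e-05). Every *Kat6a-/-* library was more than 3 times as high as the highest *Kat6a+/+* library, and the estimate in the 2 litters alone was 2.32 (limma FDR 0.000596). *Cdkn1c* (p57), an imprinted inhibitor, fell from 12.2, 16.7, 9.69 and 10.2 CPM to 4.73, 6.29, 3.99 and 4.11 CPM (log2 fold-change −1.32, limma FDR 0.0041). *Cdkn1c* was not called in the 2 litters alone (−1.01, limma FDR 0.0784). Of the 12 inhibitors and D cyclins, 3 were higher and 3 lower.

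Targets of p53, the damage-activated transcription factor that p19ARF stabilises, were higher or not called. Of 20 tested, 11 were higher and 0 lower, with a median of 0.41 and 18 estimates above 0. *Ccng1*, the most changed, was at 212.5, 198.3, 242.5 and 232.9 CPM in *Kat6a+/+* and at 430.1, 469.8, 568.2 and 577.9 CPM in *Kat6a-/-* (log2 fold-change 1.15, SE 0.15, limma FDR 0.000164). The genotypes did not overlap for it or for any of the other 10 called members, which also holds for 82.9% of all called genes. In the 2 litters alone 10 members were called higher. *Sesn2*, a stress-induced protein on both this list and that of amino acid stress, rose by 0.55 (limma FDR 0.0168) and lost its call without *Kat6a-/-* replicate 4 (0.43).

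Surface antigens, detoxifying enzymes and imprinted genes held single large changes. Of 11 genes of class I antigen presentation, 3 were higher and 4 lower (2 without *Kat6a+/+* replicate 1 or *Kat6a-/-* replicate 3), and *H2-K1*, a class I heavy chain, went from 52.6, 82.6, 44.8 and 51.8 CPM to 14.2, 18.5, 20.6 and 10.7 CPM (log2 fold-change −1.77, limma FDR 0.000497), a gene whose reads can be shared with its near-identical relatives. Of 16 interferon response genes, 4 were higher and 1 lower, with 0 higher without *Kat6a+/+* replicate 1, 1 without *Kat6a-/-* replicate 4 or with the Y-linked covariate and 2 without *Kat6a-/-* replicate 1. *S100a10*, a calcium-binding protein at the membrane, fell from 161.2, 162.5, 133.1 and 151.3 CPM to 36.3, 57.7, 70.8 and 53.9 CPM (log2 fold-change −1.43, limma FDR 0.000111), and *S100a1* rose by 2.95 (limma FDR 0.00451). Among 15 glutathione transferases and metallothioneins, 6 were higher and 1 lower, with *Gstt1* at 2.02 (limma FDR 0.000946), and 2 were higher without *Kat6a+/+* replicate 1 and 3 without *Kat6a-/-* replicate 4. *Grb10*, an imprinted adaptor that restrains insulin signalling, fell from 222.6, 203.3, 130.2 and 129.7 CPM to 49.6, 75.8, 58.0 and 43.5 CPM (log2 fold-change −1.46, limma FDR 0.000743).

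**Figure D3:**
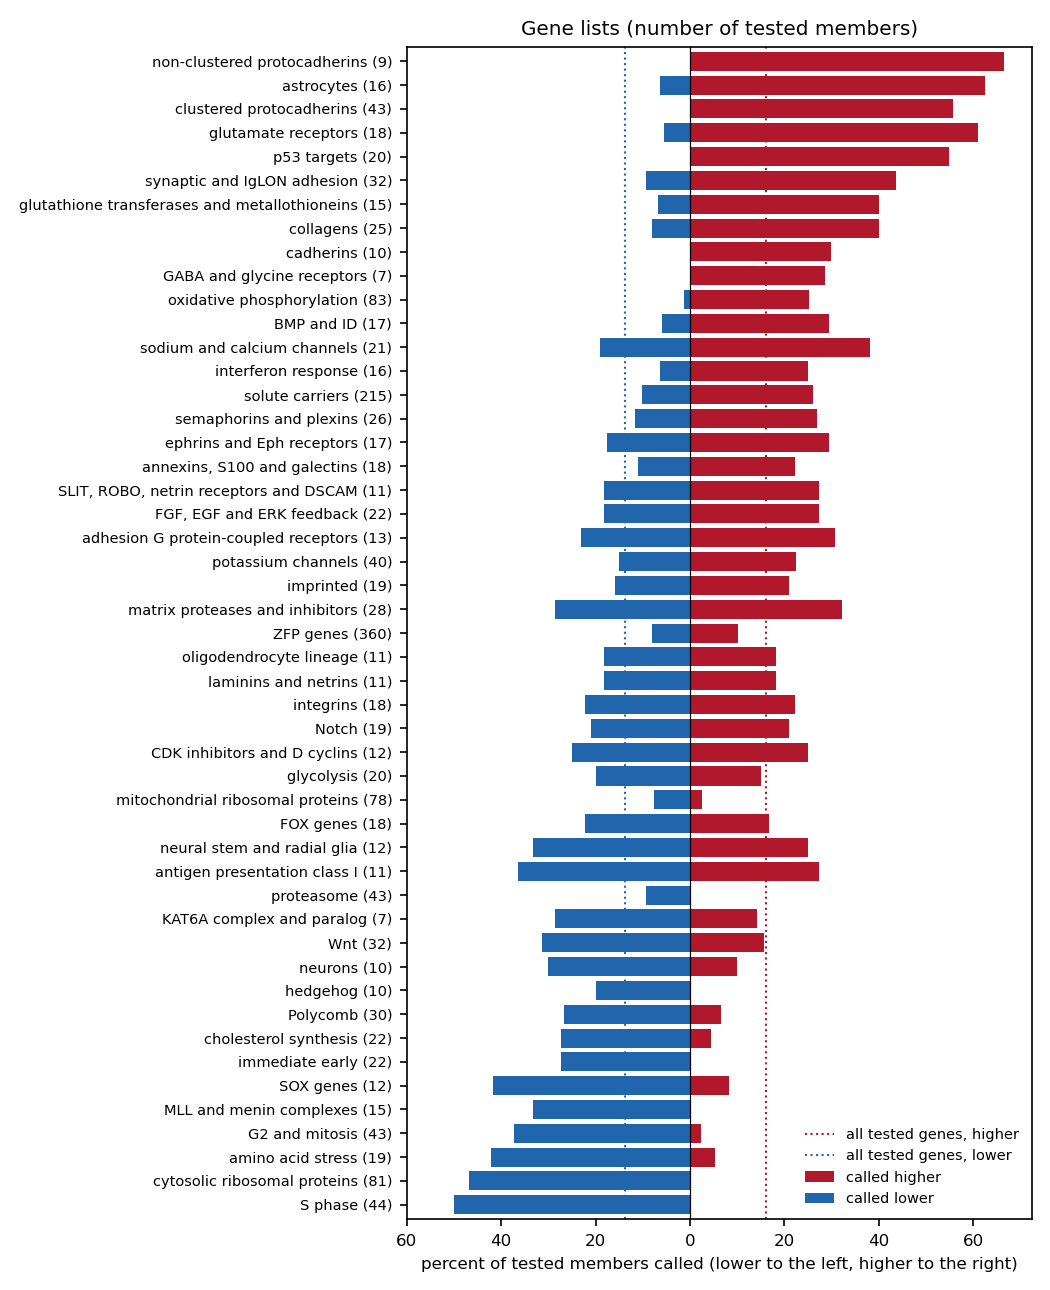
Percent of the tested members of each gene list called higher (red, to the right) or lower (blue, to the left) in Kat6a-/- proliferating NSPCs, with the number of tested members in parentheses and the shares over all tested genes, 16.2% higher and 13.8% lower, as dotted lines. Lists with fewer than 7 tested members are left out, and lists of adhesion genes, astrocyte genes and glutamate receptors stand at the top and S phase and ribosomal protein genes at the bottom.

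The sequence before the start site differed between genes that rose and genes that did not. CpG dinucleotides, dense at the promoters of most widely used genes, were counted in the 250 bases before the start of each gene's canonical transcript in GENCODE vM39 on mm39, which was possible for 12184 tested genes outside the mitochondrion. The median count was 13 for all of them, 10 for genes called higher, 14 for genes called lower and 7 for genes higher by more than 1 on the log2 scale. Of the latter, 33.6% had 4 or fewer, as did 11.4% of the genes not called. Among genes with 0 to 4 CpG, 26.0% were called higher and 10.1% lower, and among genes with 20 to 29 CpG 12.8% were higher and 15.3% lower. The share called higher was larger with 4 or fewer CpG than with 5 or more in each of the 4 groups of expression, 24.6% against 17.6% in the lowest and 28.7% against 12.9% in the highest.

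A TATA box, searched as TATAAA on the gene's own strand in the bases from 40 to 16 before the start, was present in 0.706% of all tested genes, in 0.962% of those called higher and in 1.13% of those called lower, which are 86, 19 and 19 genes. Genes called higher also spanned more of the genome. Their median span was 37.2 kb, against 28.9 kb for genes called lower and 28.0 kb for all tested genes, and of the 415 genes in the class with the longest span 32.5% were called higher and 13.7% lower. These are descriptions of the called genes, without a test.

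**Figure D4:**
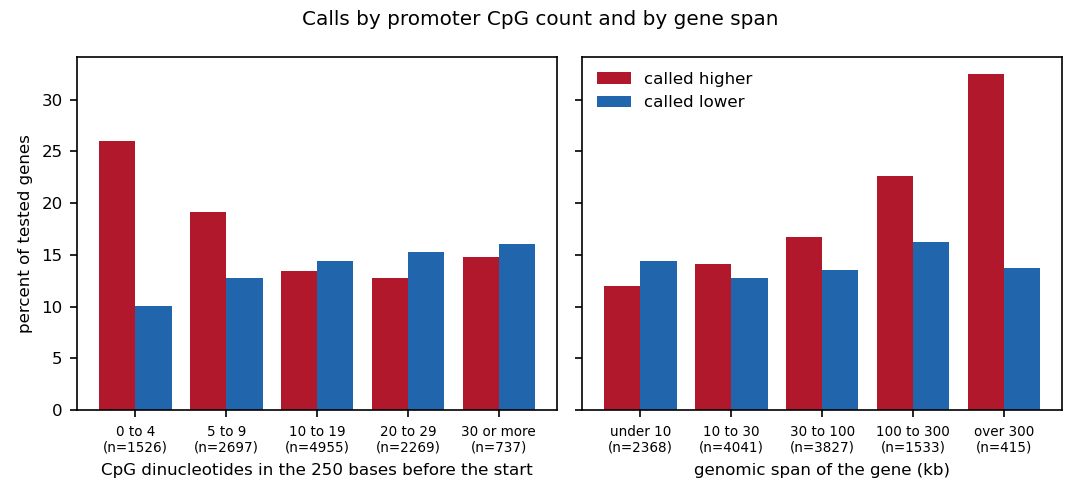
Percent of tested genes called higher (red) or lower (blue) in Kat6a-/- proliferating NSPCs, by the number of CpG dinucleotides in the 250 bases before the start (left) and by genomic span in kb (right), with the number of genes in each class below the bars. The share called higher is 26.0% with 0 to 4 CpG and 12.8% with 20 to 29, and it is 12% under 10 kb and 32.5% in the longest class, while the share called lower varies less.

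Of the 10 largest rises and 10 largest falls, 19 are shown by their counts, since sequence from the chromosome of *Dsc2* is not given. The rises had 1 to 10 CpG and the falls 3 to 26, and 0 of the 19 held the TATA box. To show what these counts mean, the 250 bases before the start are printed for the rises with the fewest and for the most abundant rise, and for the falls with the most and for the largest fall, from the GRCm39 (mm39) reference, 5′ to 3′ on the strand of the gene, with every CpG in capitals. *Ldb2* (chr5:44957293-44957542, minus strand, 1 CpG) and *Chl1* (chr6:103487103-103487352, plus strand, 3 CpG) rose, and *Sv2c* (chr13:96269086-96269335, minus strand, 26 CpG), *Elfn2* (chr15:78603080-78603329, minus strand, 20 CpG) and *Htr1b* (chr9:81515903-81516152, minus strand, 4 CpG) fell.
Ldb2: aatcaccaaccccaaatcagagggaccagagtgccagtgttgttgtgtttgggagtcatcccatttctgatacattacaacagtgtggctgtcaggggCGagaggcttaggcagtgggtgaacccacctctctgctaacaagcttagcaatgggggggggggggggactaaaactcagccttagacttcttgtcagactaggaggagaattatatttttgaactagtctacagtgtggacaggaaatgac
Chl1: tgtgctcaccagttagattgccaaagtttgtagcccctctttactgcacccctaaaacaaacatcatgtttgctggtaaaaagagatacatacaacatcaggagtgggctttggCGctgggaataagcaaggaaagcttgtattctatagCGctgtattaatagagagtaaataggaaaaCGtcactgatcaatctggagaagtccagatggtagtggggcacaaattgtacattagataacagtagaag
Sv2c: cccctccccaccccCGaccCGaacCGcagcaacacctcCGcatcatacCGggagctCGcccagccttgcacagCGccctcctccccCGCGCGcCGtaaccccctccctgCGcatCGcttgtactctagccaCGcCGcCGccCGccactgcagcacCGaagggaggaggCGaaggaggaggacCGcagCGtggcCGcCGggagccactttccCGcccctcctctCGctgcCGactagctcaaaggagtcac
Elfn2: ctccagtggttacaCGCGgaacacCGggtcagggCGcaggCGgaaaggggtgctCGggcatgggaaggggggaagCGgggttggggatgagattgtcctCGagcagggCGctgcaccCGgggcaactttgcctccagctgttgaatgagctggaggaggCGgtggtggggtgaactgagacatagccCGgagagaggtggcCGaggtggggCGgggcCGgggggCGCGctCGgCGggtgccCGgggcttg
Htr1b: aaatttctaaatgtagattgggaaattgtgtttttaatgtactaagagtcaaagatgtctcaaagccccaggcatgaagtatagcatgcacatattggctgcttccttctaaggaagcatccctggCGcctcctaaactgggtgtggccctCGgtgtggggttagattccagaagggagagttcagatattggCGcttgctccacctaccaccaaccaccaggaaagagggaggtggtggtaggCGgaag
The promoter of *Htr1b*, the largest fall, has about as few CpG as those of the rises, so that the difference between the classes is one of shares and not of every gene.

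Called genes were spread over all chromosomes, from 25.6% of the tested genes on chromosome 5 to 37.6% on chromosome 15. Near *Kat6a* on chromosome 8, where DNA linked to the targeted allele could differ between the groups, 20 of 67 tested genes within 10 Mb were called (29.9%), 12 higher and 8 lower. Within 5 Mb 15 of 50 were called (30%) and 4 of these had an absolute log2 fold-change above 1, all of them lower. Within 10 Mb there were 5 such changes, the other being a rise of *Unc5d* (1.91, limma FDR 0.0234), 6.36 Mb away. *Unc5d* was not called with the Y-linked covariate (limma FDR 0.0567) or in the 2 litters alone (limma FDR 0.224). Its call was also lost without *Kat6a+/+* replicate 1, 2 or 4 or *Kat6a-/-* replicate 3 or 4. Over all 12276 tested genes 30% were called, with 515 higher and 260 lower by more than 1. *Sfrp1*, which fell by 3.36, starts 0.55 Mb from the start of *Kat6a*, *Tcim* (−2.14, limma FDR 0.000213) 1.58 Mb, *Plekha2* (−1.29, limma FDR 0.00188) 2.24 Mb and *Eif4ebp1* (−1.17, limma FDR 0.00251) 4.4 Mb from it. These 3 genes besides *Sfrp1* were named after their values were seen, and the part of the linked DNA in their levels was not tested.

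The effect of *Kat6a* loss was also compared with that in differentiating NSPCs by the interaction of genotype and condition in one limma-voom fit of all 24 libraries. Litter was a random block in this fit. Some embryos gave libraries in both conditions, which the block covers only in part, so that the SE and FDR of the interaction are approximate. RNA was extracted with another kit in each condition, so that the kit and the condition cannot be told apart. In differentiating cultures the paper found fewer cells with the neuronal marker ßIII-tubulin when *Kat6a* was lost. Cell composition there therefore differed by genotype, and its part in the interaction was not tested. The interaction was called for 1895 of 13590 genes (13.9%) and for 43 of the 137 genes that a rule on size, abundance, list and p-value names. Most of the 137 were chosen by their change in the same proliferating libraries, which favours large estimates there. The 2 shares can therefore not be compared, and a smaller estimate in differentiating cells is partly built in. Without *Kat6a-/-* differentiating replicate 2 the first count was 3520 and the second 58. Of the 43, the log2 fold-change was lower in differentiating cells for 25 and higher for 18. *Frem1* (4.19 in proliferating and −0.01 in differentiating NSPCs in this fit), *Dlgap1* (3.56 and 0.11) and *Scrg1* (2.96 and 0.02) had a rise in proliferating cells with an estimate near 0 in differentiating cells. *Dlgap1* lost its call without *Kat6a+/+* proliferating replicate 1. *Tagln2* (−2.03 and 0.80), *S100a10* (−1.54 and 1.05), *Adgre5*, an adhesion receptor (−1.57 and 1.40), and *Atf3* (−2.48 and 1.46) had estimates of opposite sign. *Vim* (−0.53 and 0.67) and *Nes* (−0.41 and 0.84), *Eef1a1* (−0.51 and 0.29) and *Eef2* (−0.49 and 0.17) did as well.

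Other genes had the same direction with another size. *Cdkn2a* was higher in both conditions, with 2.05 in proliferating and 3.65 in differentiating NSPCs (interaction 1.60, SE 0.45, limma FDR 0.0213). *Igf2bp2* was lower in both, by less in differentiating NSPCs (−2.79 and −1.46, limma FDR 0.0242). The difference for *Cdkn2a* lost its call without *Kat6a+/+* differentiating replicate 1 or 3, *Kat6a+/+* proliferating replicate 1 or *Kat6a-/-* proliferating replicate 1, and that for *Igf2bp2* without *Kat6a+/+* proliferating replicate 1 or replicate 1 of either *Kat6a-/-* condition. *Aurkb* was lower in both, by more in differentiating NSPCs (−0.57 and −3.15, limma FDR 0.000672). *Ablim1* (2.19 and 0.69) and *Opcml* (1.96 and 0.46) were less changed in differentiating NSPCs. For the other 94 named genes, among them *Chl1* and *Htr1b*, the difference did not pass the threshold, which does not show that the effects are equal.

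**Figure D5:**
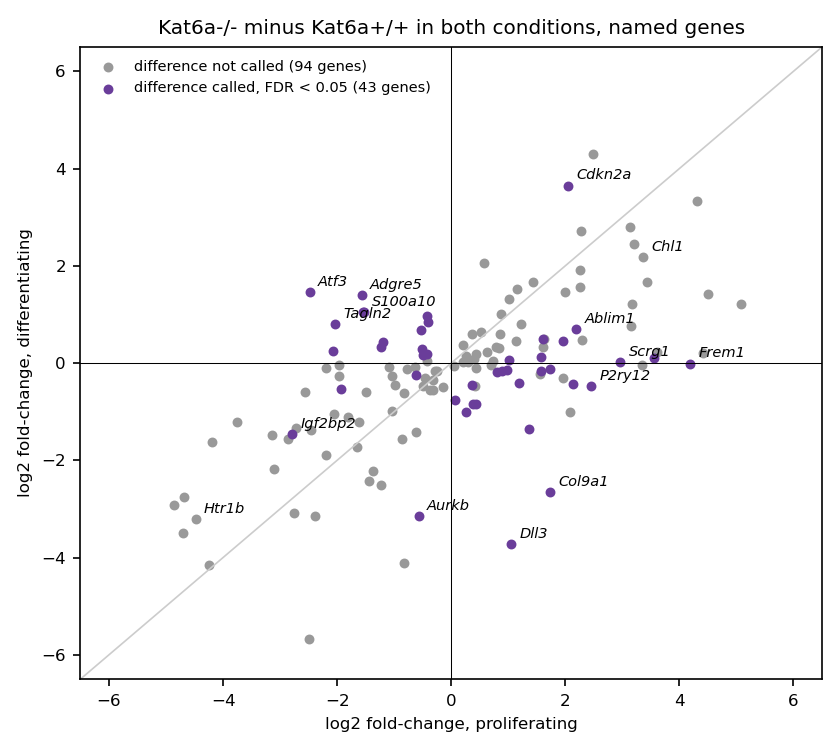
Log2 fold-change of Kat6a-/- relative to Kat6a+/+ in proliferating (horizontal axis) and differentiating NSPCs (vertical axis) for the 137 named genes, from one fit of 24 libraries, with 43 genes whose interaction was called in purple and the other 94 in grey, and equal changes on the diagonal. Dll3 and Col9a1 lie below the horizontal zero line and Tagln2, Adgre5 and Atf3 above it, opposite in sign to their change in proliferating NSPCs.

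Heterozygous cells are given beside these values for the genes named above, with the caution that the *Kat6a+/+* libraries serve both contrasts. In *Kat6a+/-* proliferating NSPCs 0 genes (0%) were called by limma, 912 had an unadjusted p under 0.05 and the lowest FDR was 0.0692, while edgeR called 0 and DESeq2 28 genes. In *Kat6a+/+*, *Kat6a+/-* and *Kat6a-/-* libraries, in this order, the mean of *Chl1* was 55.5 ± 29.1, 149.8 ± 29.5 and 487 ± 33.6 CPM (SD, n = 4). *Igf2bp2* was at 99.3 ± 10.8, 61.5 ± 14.7 and 15.5 ± 6.48 CPM and *St8sia4* at 9.03 ± 0.817, 15.3 ± 0.372 and 29.97 ± 4.02 CPM in the same order (SD, n = 4). *Cdkn2a* had nearly the same mean in *Kat6a+/+* and *Kat6a+/-*, 11.98 ± 2.57 and 14.03 ± 6.36 CPM, against 52.8 ± 5.14 CPM in the null libraries (SD, n = 4).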

How the data were processed

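RNA of 12 proliferating NSPC libraries (4 each of *Kat6a+/+*, *Kat6a+/-* and *Kat6a-/-*) was analysed. The deposited values are raw counts per gene: the authors aligned reads to mm39 with Rsubread and counted them with featureCounts over RefSeq genes, and the strand setting of the counting is not given in the sources used here. Genes that share sequence or overlap are therefore uncertain.

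From these counts, protein-coding genes (21030 of 26411) other than *Xist* and Y-linked genes were filtered with filterByExpr, scaled by TMM and fitted by genotype with limma-voom (R 4.3.3, limma 3.58.1, edgeR 4.0.16), with litter as a random block (correlation 0.287), robust moderation and Benjamini-Hochberg adjustment. Biotypes came from the RefSeq table of the GRCm38 assembly, and 52 genes without one (at most 0.178% of counts) were left out. CPM use library totals scaled by TMM factors. The step was tested on simulated data: of genes changed 1.5-fold 44.6%, 2-fold 82.1% and 4-fold 93.9% were recovered for this comparison, with 8 false calls among 12217 genes. The simulated libraries were drawn independently, with no litter effect and no difference of sex. The false calls therefore do not measure error from litter or sex.

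Named genes were drawn first from called genes with groups that do not overlap. These were the 10 largest rises and falls with average log2 CPM above 1 and the 6 largest gains and losses in mean CPM. Added to them were the largest called rise and fall of each of 58 gene lists, the 5 smallest p-values, *Kat6a* and the neural stem cell markers. Values of a few genes are not reported here. The members and lists were chosen with earlier results of these data known. Promoters came from GENCODE vM39 on GRCm39. Scaling, filters, biotypes, tests (edgeR, DESeq2 1.42.0), litter terms, a Y-linked covariate, depth and single libraries were varied.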

Additional observations from a re-analysis of the deposited data

Results flagged for a closer look

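Among the 4 libraries of a group, 13 of 274 sets of values of named genes had 1 library whose gap to the nearest other took more of the group's range than Dixon's critical value at the 95% level allows, and chance flags about 1 in 20 sets. *Kat6a+/+* replicate 3 was the high library for *Pla2g7* (2.698 CPM), *CYTB* (5186 CPM), *Rybp* (25.28 CPM) and *Mmp16* (7.595 CPM). *Kat6a-/-* replicate 4 was high for *Zfp791* (3.494 CPM), *Ntng1* (5.858 CPM) and *Lrrtm4* (3.597 CPM) and low for *Dhcr7* (178.7 CPM) and *Aurkb* (51.59 CPM). *Kat6a-/-* replicate 1 was high for *Gfap* (6.69 CPM) and low for *Pcgf2* (2.422 CPM) and *Zfp536* (0.2307 CPM), and *Kat6a-/-* replicate 2 was low for *Adamts19* (0 CPM).

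The effect of *Kat6a* loss differed between differentiating and proliferating NSPCs for 43 named genes by the interaction in limma-voom, and the values that follow are log2 fold-changes in differentiating minus those in proliferating cells. The difference was negative for 25 genes. It was largest for *Dll3* (−4.77), *Col9a1* (−4.39), *Frem1* (−4.21), *Dlgap1* (−3.45), *Scrg1* (−2.94), *P2ry12* (−2.93), *Plxnc1* (−2.72), *Aurkb* (−2.59) and *Gstt1* (−2.57). Between −2 and −1 were *St8sia4* (−1.85), *Id1* (−1.75), *Cdh10* (−1.61), *Ablim1* (−1.50), *Opcml* (−1.50), *Mlc1* (−1.47), *Msi1* (−1.29), *Ckap2* (−1.26), *Sox5* (−1.23), *Slc1a3* (−1.12), *Adgra1* (−1.10), *Nfix* (−1.06) and *Fgfr2* (−1.0). Smaller differences were found for *Ptprz1* (−0.95), *Lhx2* (−0.82) and *Notch1* (−0.82).

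The difference was positive for 18 genes. *Atf3* (3.94), *Adgre5* (2.97), *Tagln2* (2.83), *S100a10* (2.59), *Bst2* (2.59) and *Hk2* (2.32) had the largest. Between 1 and 2 were *Ldha* (1.64), *Cdkn2a* (1.60), *Asns* (1.56), *H2-K1* (1.41), *Gsto1* (1.39), *Igf2bp2* (1.33), *Nes* (1.25) and *Vim* (1.2), and below 1 *Eef1a1* (0.80), *Eef2* (0.66), *Mrpl14* (0.61) and *Psme4* (0.37). *Adgra1* lost its call in 7 and *P2ry12* in 4 of the 16 fits that left out 1 library. *Sox5* lost its call without *Kat6a-/-* differentiating replicate 3 or *Kat6a+/+* proliferating replicate 2, *Fgfr2* and *H2-K1* without *Kat6a-/-* proliferating replicate 4, and *Psme4* without *Kat6a-/-* proliferating replicate 1.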

How the results depend on the processing

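Totals under the alternatives come first and the gene lists and named genes after them. The cause of each difference was not tested. With litter as a fixed term 1936 genes were called (1061 higher, 875 lower, 482 by more than 1 on the log2 scale), and within litters 4633 and 4746 there were 1039 (597, 442 and 349). The fits that left out 1 library called 2317 to 3996 genes, 1300 to 2160 of them higher, 1017 to 1875 lower and 634 to 897 by more than 1, and the lowest total was without *Kat6a+/+* replicate 1. The median span of genes called higher exceeded that of genes called lower by 8.3 kb, and by 13.4 kb for changes above 1. The sign of an uncalled estimate turned for *Pax6* (−0.011 within the 2 litters) and for *Notch1* (−0.006 without *Kat6a-/-* replicate 1, with 0.162 the highest of the fits that left out 1 library). With the Y-linked level as a covariate 2757 genes were called, and with library totals alone 50% of the called genes were higher, against 54.1% with TMM. The filter at 1 CPM in 4 libraries kept the 12276 genes tested above, so that it is no separate check. Replicate numbers did not pair the libraries (correlations of deviations −0.093 to 0.055, none best with its own number), and with the replicate block 3519 genes were called. Of the values for named genes under the alternatives, 3366 kept direction and call, 312 lost the call and 5 gained one, and of the list counts 1294 stayed within 1.5 times and 164 did not. With all libraries thinned to the lowest total, 3213 genes were called. The fit of the 2 litters rests on 7 of the 12 libraries, and in it 37 of 54 list counts moved by more than 1.5 times. Besides those given beside the results, these were astrocyte (4 higher), endothelial (0 lower), oligodendrocyte (1 higher), neuronal (1 lower) and ventral telencephalic genes (0 higher), FOX (1 lower) and NFI genes (0 higher), collagens (5 higher), matrix proteases (5 higher), potassium channels (5 higher), sodium and calcium channels (3 higher), solute carriers (22 higher), Notch (2 higher), BMP (3 higher) and Wnt genes (5 lower), interferon response (0 higher), antigen presentation (2 lower), annexins and S100 (2 higher), glutathione transferases (1 higher), proteasome (1 lower) and neural stem cell genes (2 lower). In that fit 62 named genes lost their call. Among them, besides those named with it, were *Ldha*, *Prom1*, *Msi1*, *Map2*, *Rbfox3*, *Fgfr3*, *Emcn*, *Kat6b*, *Brpf1*, *Nfix*, *Nfia*, *Col9a1*, *Col2a1*, *Lrrtm4*, *Grin2a*, *Slc39a12*, *Fgfr2*, *Dll3*, *Hey1*, *Id1*, *Aldoc*, *Hk2*, *S100a1* and *Gstt1*. With litter as a fixed term 21 list counts moved by as much and 32 named genes lost their call, among them *Pla2g7*, *CYTB*, *Nes*, *Hk2* and *Grin2a*. S phase had 9 lower genes in that fit, clustered protocadherins 13, ZFP genes 11 and oxidative phosphorylation 4 higher ones. With the Y-linked covariate 13 list counts moved by as much and 14 named genes lost their call, among them *Nes*, *Brpf1*, *Fgfr2*, *Hey1* and *Aurkb*. The proteasome count of 4 was 1 with edgeR and with DESeq2.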
